A study of Mus musculus with 15 samples.

Results

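The genes described here were detected in the mouse mammary carcinoma line 4T1 and not in 4TO7, a line derived from the same tumour. They were chosen by detection p-value, which ranks a probe's signal against the negative control probes of its own array. A probe had to have a detection p under 0.01 on all 9 arrays of 4T1 and above 0.05 on all 6 arrays of 4TO7. Of 25697 probes 73 met both thresholds, and 70 of them carried a gene symbol, for 66 symbols. Adal, Ptprk and Rbpms were left out because another of their probes was detected on 3 or more arrays of 4TO7, and Fads1, Gsta1 and Plvap were left out by name. This left 60 genes of 16593 named genes on the array, of which 6248 were detected on all 9 arrays of 4T1 and 5965 on all 15 arrays. The mirrored rule gave 42 genes for 4TO7.

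The 4T1 cells had been stably transduced with the lentiviral vector pLKO, carrying a scrambled control hairpin or either of 2 hairpins against Tm4sf1, called hairpin 1 and hairpin 5. In 4TO7 the vector was pBabepuro, a retrovirus, either empty or with TM4SF1. Total RNA of each of the 5 groups was profiled on 3 Illumina BeadChip arrays, which the labels call biological replicates. The p-values below measure the spread between these arrays, since the labels do not say whether cultures were separate or whether a transduced line was 1 clone or a pool. The lines also differ in vector, so a difference between 4T1 and 4TO7 cannot be told apart from a difference between lentivirally and retrovirally transduced cells.

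As background, 4T1 spreads from the mammary fat pad to lung, liver and bone, whereas 4TO7 cells reach distant organs but seldom grow into visible metastases there. Loss of epithelial junctions, new integrins and proteases, and transcription factors of the epithelial to mesenchymal transition such as Twist1 are processes much studied in these lines. Tm4sf1 encodes a protein that spans the membrane several times, a distant relative of the tetraspanins that gather receptors and integrins at the cell surface.

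Between 9436 and 10703 probes were detected on a 4T1 array and between 9848 and 10199 on a 4TO7 array. Mean signal per array was 222 to 418.6, and the dimmest arrays of the groups were scramble 3, hairpin 1 replicate 2, hairpin 5 replicate 1, empty vector 3 and TM4SF1 replicate 3. Normalized levels correlated across genes at r = 0.9227 to 0.9348 between arrays of different lines and at 0.9822 or more between arrays of a line. Tm4sf1 fell with both hairpins (log2 fold change -1.13, adjusted p = 4.94e-04, and -1.49, adjusted p = 1.88e-05, limma) and differed by 0.14 between TM4SF1 and empty vector in 4TO7 (SE 0.194, adjusted p = 0.933). Tm4sf1 itself did not separate the lines, at 8.17, 8.01 and 8.03 with scramble and 8.68, 7.85 and 8.29 with the empty vector. With hairpin 5 its levels were uneven, at 7.07, 6.72 and 5.96. The labels do not say whether the introduced TM4SF1 contains the stretch that its probe reads, so the 4TO7 groups are used as labelled.

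Both lines come from a mammary carcinoma, and their epithelial markers were mixed. The luminal genes Krt8, Krt18, Gata3 and Wfdc2 were detected on all 15 arrays and Krt7 on all 9 of 4T1, while Cdh1, which encodes E-cadherin, was detected on 1 array and 8 of 18 luminal markers on 0. Of 13 basal and myoepithelial markers on the array 7 were detected on 0 arrays, among them Krt5, Krt14 and Trp63, while Mylk, Itga6, Itgb4 and Cav1 were detected on all 15 and Acta2 on all 9 of 4T1. The mesenchymal genes Vim, Zeb2, Snai1 and S100a4 were detected on all 15 arrays, and 10 of 18 such markers, among them Col1a1, Cdh2 and Zeb1, on 0.

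Ckb and Scarf2 had the largest at-least folds between the lines. Ckb encodes brain-type creatine kinase, which moves phosphate between ATP and creatine, and its probe ILMN_1224754 gave log2 levels of 12.43, 12.42 and 12.36 with scramble. With hairpin 1 the levels were 12.59, 12.49 and 12.73, and with hairpin 5 they were 12.69, 12.57 and 12.68. On the 4TO7 arrays it read 4.30, 4.36 and 4.35 with the empty vector and 4.42, 4.29 and 4.38 with TM4SF1. All 6 of these lay under the lowest signal of any detected probe on the same arrays, which was 5.20 to 5.33. For a probe below background only a bound can be given. Here the bound is the scramble mean over the empty-vector mean, with each empty-vector array raised to its lowest detected level where the probe read less. By this bound Ckb was at least 139.6-fold higher in 4T1.

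Scarf2, a scavenger receptor family member with EGF-like repeats in its outer part (probe ILMN_2676127), gave 10.80, 10.88 and 10.91 with scramble. It read 10.72, 10.84 and 10.74 with hairpin 1 and 10.88, 10.62 and 10.93 with hairpin 5. In 4TO7 it read 4.39, 4.25 and 4.35 with the empty vector and 4.33, 4.74 and 4.83 with TM4SF1, again under the lowest detected level. Scarf2 was at least 48.0-fold higher in 4T1. These values chose the genes and are given as a description, with no test of the line difference. In whole cultures, fewer cells that express a gene and less RNA per cell cannot be told apart.

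**Figure D1:**
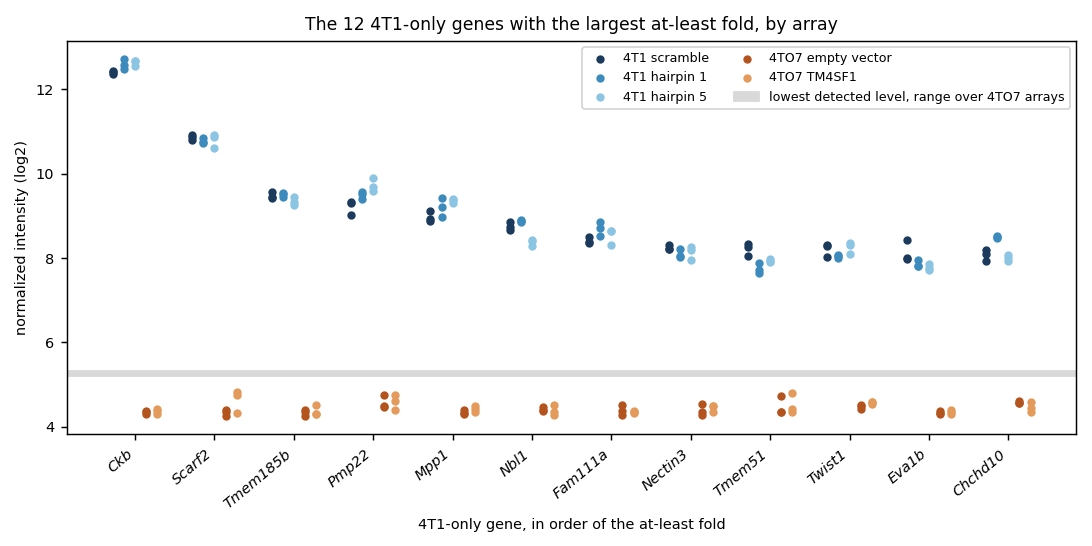
Normalized intensity (log2) of the 12 4T1-only genes with the largest at-least fold on each of the 15 arrays, 1 point per array and 1 colour per group. The grey band is the lowest detected level of the 6 4TO7 arrays, 5.20 to 5.33. All 4TO7 points lie under it, and the 4T1 points of Ckb and Scarf2 lie at 10.62 or above.

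The DNA just upstream of Ckb, Scarf2 and Twist1 is shown because the first 2 mark the set and Twist1 is its best known regulator of cell identity. Each line gives the 200 bases before the transcription start in RefSeq's table of GRCm38.p6, 5′ to 3′ on the strand of the gene, at chr12:111672339-111672538 (minus strand), chr16:17797082-17797281 (plus strand) and chr12:33957471-33957670 (plus strand). Capitals mark the matches to 3 promoter motifs, the TATA box TATAAA, the CCAAT box CCAAT and the GC box GGGCGG, searched on both strands and at any position.
Ckb: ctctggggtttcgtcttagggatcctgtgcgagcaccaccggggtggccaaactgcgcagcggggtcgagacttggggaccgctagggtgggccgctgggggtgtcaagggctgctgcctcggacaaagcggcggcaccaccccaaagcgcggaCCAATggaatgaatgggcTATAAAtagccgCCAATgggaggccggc
Scarf2: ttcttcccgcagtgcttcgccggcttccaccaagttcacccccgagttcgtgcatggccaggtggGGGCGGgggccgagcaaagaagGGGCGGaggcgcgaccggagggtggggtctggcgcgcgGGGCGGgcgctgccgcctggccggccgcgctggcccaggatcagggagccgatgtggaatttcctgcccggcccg
Twist1: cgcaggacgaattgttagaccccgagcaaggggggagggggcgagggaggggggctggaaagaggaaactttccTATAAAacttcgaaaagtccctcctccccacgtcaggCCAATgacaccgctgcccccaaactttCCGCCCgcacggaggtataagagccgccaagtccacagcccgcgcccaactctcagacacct
The Ckb stretch held TATAAA at 28 bases before the start and CCAAT at 46 and 16 bases. The Scarf2 stretch held GGGCGG at 135, 113 and 75 bases before the start, with 73.5% G and C. The Twist1 stretch held TATAAA at 126, CCAAT at 89 and the reverse complement CCGCCC at 62 bases. A match describes the letters and is not a measured site.

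Over all 60 genes the at-least fold ran from 1.32 to 139.6, with a median of 2.49. It exceeded 10 for 6 genes, lay between 5 and 10 for 9 and between 2 and 5 for 25, and was under 2 for 20. All 360 values of these genes on 4TO7 arrays (4.21 to 4.89) were under the lowest detected level of their array, while their 540 values on 4T1 arrays ran from 5.33 to 12.73. A detection p of 0 on all 9 arrays of 4T1 was found for 39 genes. With all of 4TO7 below background, the size of the bound follows the 4T1 signal alone, and a small bound does not mean a small difference.

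**Figure D2:**
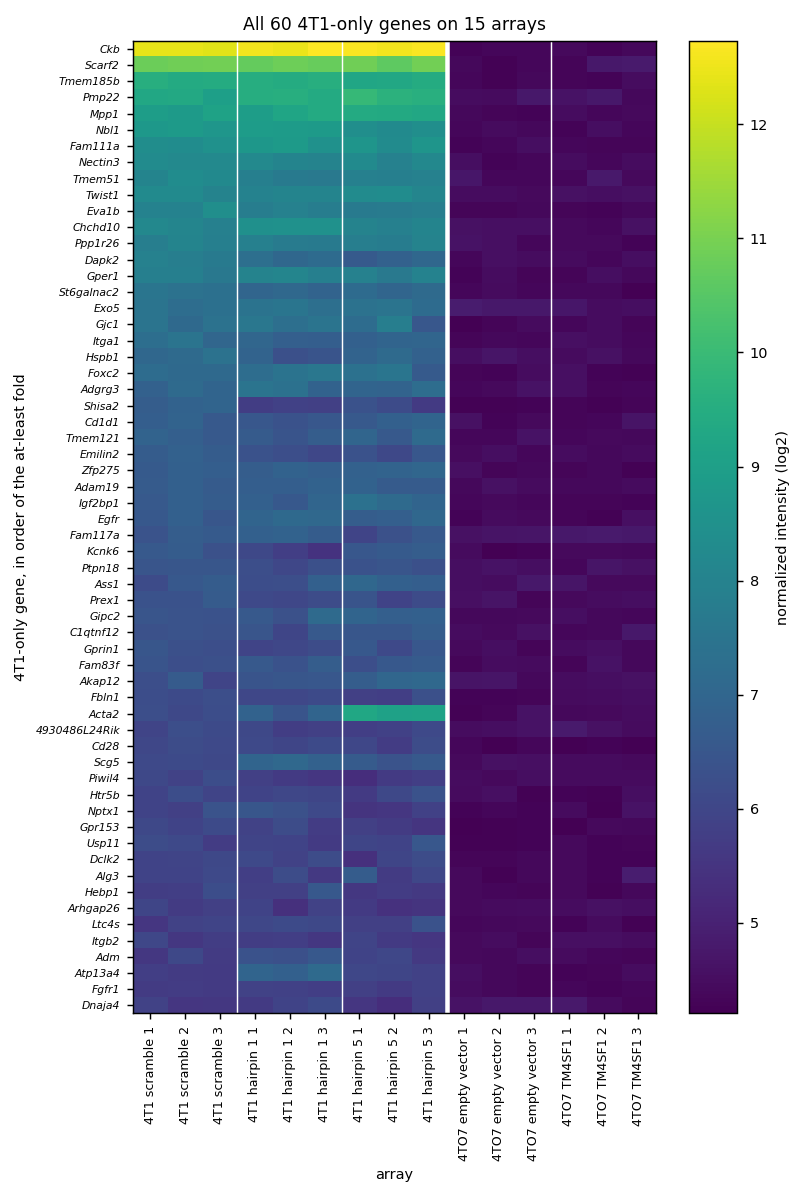
Normalized intensity (log2, colour) of all 60 4T1-only genes (rows, in order of the at-least fold) on the 15 arrays (columns, white lines between groups). The 9 4T1 columns run from 5.33 to 12.73 and the 6 4TO7 columns from 4.21 to 4.89. Acta2 stands out in the 3 hairpin 5 columns, at 9.09 to 9.29.

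Genes of membrane proteins are described first. Of 26 desmosome, tight junction and adherens junction genes listed and present on the array, 0 belonged to the set, and the list did not hold Nectin3 or Pmp22. Pmp22, a tetraspan protein of myelin and epithelial junctions, gave 9.31, 9.34 and 9.02 with scramble and 4.40 to 4.75 on the 6 arrays of 4TO7, at least 15.4-fold apart. Mpp1, a membrane scaffold of the guanylate kinase family first found in red cells, gave 8.94, 8.87 and 9.12 with scramble and was at least 12.97-fold higher. Nectin3, an adhesion molecule that pairs with other nectins at adherens junctions, gave 8.30, 8.22 and 8.22 and was at least 7.82-fold higher. For each of these the scramble arrays lay close together and far above every 4TO7 array. The multi-pass protein genes Tmem185b (at least 18.3-fold) and Tmem51 (at least 7.65-fold) and the single-pass protein gene Eva1b (at least 7.23-fold) were among the 12 with the largest bound. Gjc1, a connexin of gap junctions, belonged to the set as well.

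Adhesion receptors and growth factor receptors had smaller bounds. Itga1, the collagen-binding integrin alpha 1 chain, gave 7.30, 7.49 and 7.01 with scramble, at least 3.97-fold above 4TO7. Itgb2, the beta 2 chain of leucocyte integrins, gave 6.02, 5.57 and 5.76, at least 1.42-fold. Egfr, the receptor for EGF, gave 6.54, 6.82 and 6.50, at least 2.53-fold, and Fgfr1, a receptor for FGFs, gave 5.69, 5.72 and 5.65, at least 1.33-fold. For these 4 genes, as for all 60, the lowest 4T1 array exceeded the highest 4TO7 array, by 0.55 or more on the log2 scale. This largely follows from the rule, which chose the genes by detection in 4T1 and not in 4TO7. Other probes limit what Egfr and Fgfr1 show. The other 3 Egfr probes were detected on 0, 2 and 2 of the 9 arrays of 4T1, and the other Fgfr1 probe on 0, so most probes of these receptors read near background in both lines.

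The receptors coupled to G proteins were Gper1, a membrane estrogen receptor (at least 5.73-fold), the adhesion-type receptor gene Adgrg3 (at least 3.28-fold), the orphan receptor gene Gpr153 and the serotonin receptor gene Htr5b. Gpr153 gave 6.06, 5.92 and 6.12 with scramble, at least 1.69-fold above 4TO7, and Htr5b gave 5.93, 6.23 and 5.96, at least 1.70-fold. Neither passed with hairpin 1 (-0.11, adjusted p = 0.806, and -0.06, adjusted p = 0.919, limma) or with hairpin 5 (-0.36, adjusted p = 0.346, and -0.03, adjusted p = 0.968). Kcnk6, a two-pore potassium channel, gave 6.59, 6.68 and 6.33 with scramble and 4.23 to 4.45 in 4TO7, at least 2.38-fold. Arhgap26 and Prex1 were both in the set.

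Several genes are best known from leucocytes. Itgb2, the T cell co-receptor gene Cd28, the lipid-presenting molecule gene Cd1d1 and the leukotriene C4 synthase gene Ltc4s belonged to the set. Of 17 leucocyte markers on the array 13 were detected on 0 of 15 arrays, among them Ptprc, Itgam, Cd3e and Lyz2. Cd14 was detected on all 15 arrays and Cd74 only on the 6 arrays of 4TO7. The summed linear level of the 17 markers was 771 to 956.3 on 4T1 arrays and 1266 to 1527 on 4TO7 arrays. With 13 of the markers undetected, this sum says little about leucocytes, and which cells express the 4 genes was not tested.

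Secreted and matrix genes came next. Nbl1, a secreted BMP antagonist of the DAN family, gave 8.74, 8.84 and 8.67 with scramble and was at least 11.1-fold higher than in 4TO7. Fbln1 encodes fibulin-1, a glycoprotein of basement membranes, and its chosen probe gave 6.21, 6.13 and 6.24, at least 1.89-fold. A second Fbln1 probe, detected on all 9 arrays of 4T1 and on 0 of 4TO7, averaged 9.62 with scramble against 4.71 with the empty vector. The third, detected on 4 arrays of 4T1 and on 0 of 4TO7, averaged 5.13 against 4.36, so the 3 probes of this gene differ in how wide a gap they show. Adam19, a membrane-bound metalloprotease that sheds growth factors, gave 6.65, 6.82 and 6.65 with scramble. Emilin2, C1qtnf12, Nptx1, the peptide hormone gene Adm and the neuroendocrine chaperone gene Scg5 completed this group.

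The best known transcription factor genes were Twist1 and Foxc2. Twist1, a basic helix-loop-helix factor of mesoderm and of the epithelial to mesenchymal transition, gave 8.30, 8.29 and 8.02 with scramble. It gave 7.996, 8.05 and 8.07 with hairpin 1, 8.32, 8.35 and 8.10 with hairpin 5, and 4.42 to 4.59 in 4TO7, at least 7.59-fold apart from scramble. Foxc2, a forkhead factor of vessels and mesenchyme, gave 7.24, 7.12 and 7.12 with scramble, at least 3.68-fold. Both were thus far from 4TO7 in every 4T1 group, while Vim, Zeb2 and Snai1 were detected in both lines. The related gene Twist2 was detected on 0 arrays. Of 105 SOX, FOX, KLF, GATA, ETS and TFAP2 genes on the array 29 were detected on all arrays of 4T1 and 32 on all arrays of 4TO7, and Foxc2 was the 1 that met the rule.

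Few of the listed creatine genes were detected beside Ckb, and the list held no transporter gene. Of 6 creatine genes on the array, Ckb and the synthesis enzyme gene Gamt were detected on all 9 arrays of 4T1, Gamt also on all 6 of 4TO7, and the other 4 on no array. Ckb is also a marker of neural cells. Of 13 neural and glial markers 8 were detected on 0 arrays, among them Gfap, Tubb3 and Snap25, and Map2, Mbp and Nes were detected on all 15. Of the other 15 scavenger receptor genes on the array, Scara3, Scara5, Scarb2 and Cxcl16 were detected on all 15 arrays, and Stab1 on all 6 of 4TO7 but not on all of 4T1.

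The remaining genes with large bounds have roles inside the cell. Fam111a, which in human cells is a protease that acts at DNA replication forks and restricts viruses, was at least 8.77-fold higher, and Chchd10, a protein of the mitochondrial intermembrane space, at least 6.94-fold. Dapk2, a calmodulin-regulated kinase linked to cell death and autophagy, gave 7.95, 7.86 and 7.67 with scramble, at least 5.85-fold. Acta2, smooth muscle alpha-actin, gave 6.27, 6.07 and 6.22, at least 1.88-fold. Others with known roles were the arginine synthesis enzyme gene Ass1, the small heat shock protein gene Hspb1, the kinase anchor gene Akap12, the RNA-binding protein gene Igf2bp1, the sialyltransferase gene St6galnac2, the mannosyltransferase gene Alg3, the exonuclease gene Exo5, the phosphatase gene Ptpn18, the deubiquitinase gene Usp11 and the piRNA-binding protein gene Piwil4. Ppp1r26, Dclk2, Dnaja4, Fam117a, Fam83f, Gipc2, Gprin1, Hebp1, Tmem121, Zfp275 and a Riken clone complete the 60.

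The next question was whether knockdown of Tm4sf1 moved the genes that set 4T1 apart from 4TO7. The rule did not use the contrast between hairpins and scramble, but it did require detection under each hairpin, so a gene driven below detection by a hairpin could not be in the set. Single genes went both ways. The median log2 change was 0.018 with hairpin 1 (31 genes higher, 29 lower, all genes 0.0017) and -0.011 with hairpin 5 (30 and 30, all genes 0.0057). Without regard to sign, the median size of a change was 0.223 and 0.205 for the 60 genes and 0.131 and 0.120 for all genes tested, and the median SE was also larger, 0.172 against 0.130. The changes of single genes ran from -1.04 to 1.27 and from -0.98 to 2.98. Both comparisons use the same 3 scramble arrays. Ckb (0.20, adjusted p = 0.181, and 0.24, adjusted p = 0.122, limma) and Scarf2 (-0.10, adjusted p = 0.714, and -0.06, adjusted p = 0.874) did not pass. The Ckb arrays of each hairpin were nonetheless all above the scramble arrays.

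The shares over all genes given below include genes that were weak or absent in 4T1. Of the 8228 genes tested 6753 were detected on all 9 arrays of 4T1, as all 60 were. Shares among those 6753 alone were not computed. With hairpin 1, limma called 8 of the 60 genes (13.3%) at an adjusted p under 0.05, where 5.83% of all 8228 genes tested were called. Of these, 4 rose (3.01% of all genes did) and 4 fell (2.82%). The arrays of hairpin 1 and scramble did not overlap for 29 of the 60 (48.3%), against 25.1% of all genes. Every omission of 1 array lowered the number called. It was 6 without hairpin 1 replicate 1, 5 without scramble 1, scramble 3 or hairpin 1 replicate 2, and 4 without scramble 2 or hairpin 1 replicate 3.

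The rises with hairpin 1 were in Atp13a4, Scg5, Adm and Acta2. Atp13a4, a P5-type ATPase, gave 5.80, 5.67 and 5.64 with scramble and 6.96, 6.81 and 7.15 with hairpin 1. It was higher on 3 of 3 hairpin arrays by a wide gap, 2.40-fold (log2 1.27, SE 0.170, adjusted p = 1.97e-05, limma, n = 3 against 3). Scg5, which encodes the chaperone of the prohormone convertase PC2, gave 6.08, 6.13 and 6.05 with scramble and 6.94, 7.08 and 6.85 with hairpin 1. It rose 1.83-fold (0.87, SE 0.159, adjusted p = 9.68e-04), again with no overlap.

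Adm, the vasodilator peptide adrenomedullin, gave 5.60, 6.06 and 5.69 with scramble and 6.35, 6.27 and 6.55 with hairpin 1. The lowest hairpin array was only slightly above the highest scramble array, and the rise was 1.53-fold (0.61, SE 0.182, adjusted p = 0.0443). This call was lost when scramble replicate 1 or 3 or any 1 hairpin 1 array was left out (adjusted p = 0.0691 to 0.189 there, and 0.0149 to 0.696 over 19 alternatives).

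The falls with hairpin 1 were in Shisa2, Kcnk6, Hspb1 and Dapk2. Shisa2, which holds WNT and FGF receptors back in the endoplasmic reticulum in frog embryos, gave 6.73, 6.88 and 6.95 with scramble and 5.76, 5.87 and 5.82 with hairpin 1. All hairpin arrays were lower, 2.05-fold on average (-1.04, SE 0.182, adjusted p = 5.93e-04). A second Shisa2 probe was detected on 0 of 15 arrays, so the change rests on 1 probe. Kcnk6 gave 6.05, 5.77 and 5.46 with hairpin 1 and fell 1.70-fold (-0.77, SE 0.179, adjusted p = 0.00872). It did not pass without scramble replicate 2 (adjusted p = 0.0555) or without hairpin 1 replicate 3 (0.0812). A second Kcnk6 probe, detected on 7 arrays of 4T1, differed by -0.57 (adjusted p = 0.0884 over all probes).

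Hspb1, which encodes the chaperone Hsp27, gave 7.05, 7.17 and 7.41 with scramble and 6.91, 6.29 and 6.42 with hairpin 1. The first hairpin array lay near the scramble arrays and the other two well below, for a fall of 1.59-fold (-0.67, SE 0.174, adjusted p = 0.0193). The call was lost without scramble replicate 2 or 3 and without hairpin 1 replicate 2 or 3 (adjusted p = 0.0528 to 0.123 there, and 0.00382 to 0.341 over 19 alternatives).

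With hairpin 5, limma called 5 of the 60 genes (8.33%), where 3.52% of all genes were called. Of these, 3 rose (1.34% of all genes did) and 2 fell (2.19%). The arrays of hairpin 5 and scramble did not overlap for 25 of the 60 (41.7%), against 20.8% of all genes. Leaving out scramble 1 or hairpin 5 replicate 2 or 3 moved the number called to 3, and leaving out scramble 3 moved it to 2. It was 4 without hairpin 5 replicate 1 and stayed at 5 without scramble 2.

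Acta2 gave 9.29, 9.09 and 9.11 with hairpin 5, against 6.27, 6.07 and 6.22 with scramble and 6.89, 6.44 and 6.94 with hairpin 1. The hairpin 5 arrays stood far above the other 6, and the rise was 7.87-fold (2.98, SE 0.162, adjusted p = 9.6e-13, limma). With hairpin 1 it was 1.48-fold (0.57, SE 0.162, adjusted p = 0.0352). The hairpin 1 call was lost without any 1 scramble array and without hairpin 1 replicate 1 or 3 (adjusted p = 0.0674 to 0.181 there, and 0.00738 to 0.824 over 19 alternatives). The other 3 Acta2 probes gave changes of 1.71, 1.32 and 0.55 with hairpin 5 and, in the same order, 0.43, 0.51 and -0.11 with hairpin 1, so the size depends on the probe. They were detected on 3, 4 and 5 of the 9 arrays of 4T1, and the last of these also on 2 arrays of 4TO7. Of the other contractile genes on the same marker list, Myh11, Cnn1 and Tagln were detected on 0 of 15 arrays and Mylk, which encodes myosin light chain kinase, on all 15. Of 5 basal and myoepithelial markers tested, Acta2 and the caveolar protein gene Cav1 (0.78, adjusted p = 6.29e-06) rose with hairpin 5, and Acta2 with hairpin 1. The summed linear level of 13 such markers, Acta2 included, was 3135 to 3393 with hairpin 5 and 2252 to 2453 with scramble.

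Akap12, a scaffold for protein kinases A and C, gave 6.27, 6.67 and 5.96 with scramble and 6.72, 7.02 and 7.08 with hairpin 5. The scramble arrays were spread widely and the closest arrays nearly met, at a rise of 1.56-fold (0.64, SE 0.180, adjusted p = 0.0443). Pmp22 gave 9.90, 9.69 and 9.58 with hairpin 5 and rose 1.41-fold (0.50, SE 0.130, adjusted p = 0.028). Its second probe, detected on all 9 arrays of 4T1, differed by 0.36 (adjusted p = 0.303 over all probes). The Akap12 call was lost without scramble replicate 1 or 3 or hairpin 5 replicate 2 or 3 (adjusted p = 0.131 to 0.283 there, and 0.0108 to 0.768 over 19 alternatives). The Pmp22 call was lost without scramble replicate 1 or 3 or hairpin 5 replicate 1 or 2 (adjusted p = 0.0602 to 0.205 there, and 0.0028 to 0.993 over 19 alternatives).

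Dapk2 and Shisa2 fell with both hairpins, measured against the same scramble arrays. Dapk2 gave 7.31, 7.06 and 7.18 with hairpin 1 and 6.63, 6.85 and 7.05 with hairpin 5. All 6 were under the lowest scramble array (7.67), with falls of 1.56-fold (-0.64, SE 0.156, adjusted p = 0.012) and 1.98-fold (-0.98, adjusted p = 2.36e-04). The fall with hairpin 1 did not pass without scramble replicate 1 (adjusted p = 0.0738), scramble replicate 2 (0.0508) or hairpin 1 replicate 2 (0.0677), and its adjusted p was 6.16e-04 to 0.204 over 19 alternatives. A second Dapk2 probe was detected on 0 arrays. Shisa2 gave 6.35, 6.15 and 5.65 with hairpin 5, more spread than with hairpin 1, and fell 1.75-fold (-0.80, SE 0.182, adjusted p = 0.0103). That call was lost without scramble replicate 3 (adjusted p = 0.0626) or hairpin 5 replicate 3 (0.0819).

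**Figure D3:**
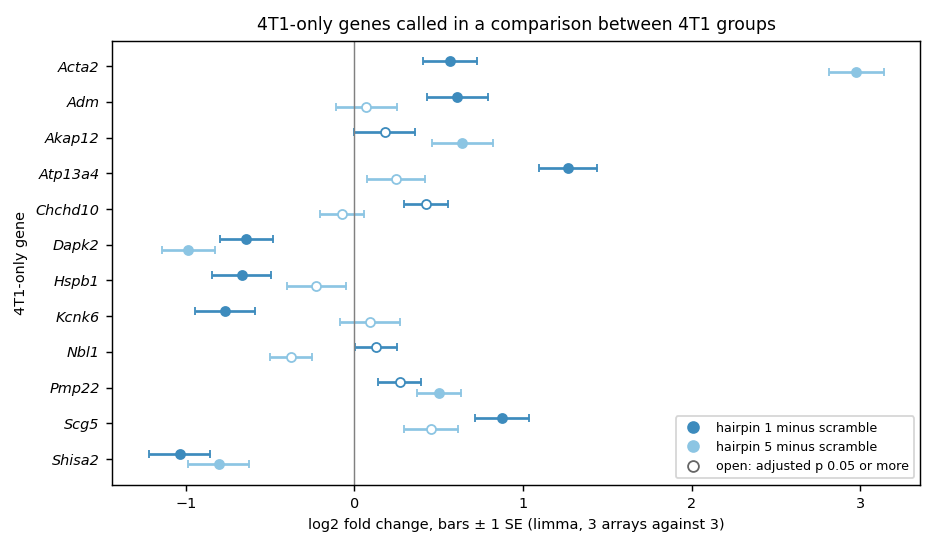
Log2 fold change of each hairpin against scramble (bars, 1 SE from limma, 3 arrays against 3) for the 12 4T1-only genes called in any comparison between 4T1 groups. Filled points passed an adjusted p of 0.05. Acta2 with hairpin 5 lies at 2.98, and Dapk2 and Shisa2 are filled and under 0 with both hairpins.

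The hairpins were then compared with each other. Limma called 5 of the 60 genes (8.33%), where 1.86% of all genes were called, with 3 higher with hairpin 1 (1.25% of all genes) and 2 lower (0.608%). The arrays did not overlap for 18 of the 60 (30%), against 17.1% of all genes. Acta2 (log2 difference -2.41, adjusted p = 2.56e-10) and Kcnk6 (-0.86, adjusted p = 0.00759) were lower with hairpin 1 than with hairpin 5, with hairpin 5 arrays of Kcnk6 at 6.51, 6.63 and 6.73. Atp13a4 was higher with hairpin 1 by 1.02 (adjusted p = 8.48e-04), with hairpin 5 arrays at 6.04, 5.98 and 5.84.

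Nbl1 and Chchd10 differed between the hairpins though neither differed from scramble by the test. Nbl1 gave 8.91, 8.88 and 8.85 with hairpin 1 and 8.41, 8.29 and 8.43 with hairpin 5, on either side of scramble (0.50, SE 0.124, adjusted p = 0.0304). Chchd10 gave 8.47, 8.52 and 8.51 with hairpin 1 and 8.01, 7.93 and 8.06 with hairpin 5 (0.50, SE 0.131, adjusted p = 0.0439). The Chchd10 call was lost without any 1 of the 6 arrays (adjusted p = 0.0658 to 0.165 there, and 0.0038 to 0.999 over 19 alternatives). The Nbl1 call was lost without any of the 6 but hairpin 5 replicate 3 (0.0819 to 0.129 there, and 0.00287 to 0.999 over 19 alternatives), and that of Kcnk6 without hairpin 1 replicate 3 (0.0697). The number called was 3 without hairpin 1 replicate 1 or 2, and 2 without hairpin 1 replicate 3. It was 3 without hairpin 5 replicate 1 or 2, and 4 without hairpin 5 replicate 3.

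**Figure D4:**
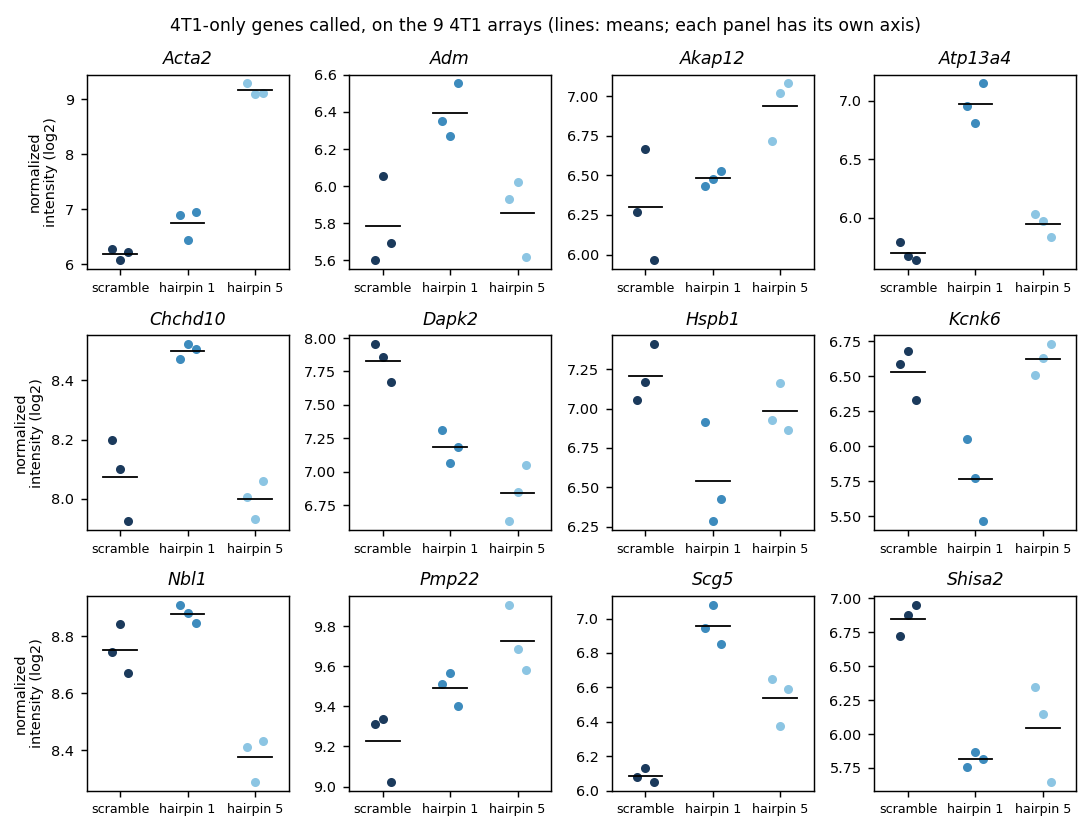
Normalized intensity (log2) of the 12 called 4T1-only genes on the 9 arrays of 4T1, 1 point per array with a line at the group mean and an axis of its own in each panel. The Acta2 arrays of hairpin 5 (9.09 to 9.29) stand above all others, and the Dapk2 and Shisa2 arrays of both hairpins lie under the scramble arrays.

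In all, 12 of the 60 genes (20%) were called in 1 or more of the 3 comparisons, where 8.24% of all genes tested were, and 48 in none. Of the 12 genes with the largest bound, Pmp22, Nbl1 and Chchd10 were called. Tmem185b, Mpp1, Fam111a, Nectin3, Tmem51, Twist1 and Eva1b did not pass with either hairpin. Twist1 changed by -0.17 (SE 0.134, adjusted p = 0.547) and 0.05 (adjusted p = 0.906), and Nectin3 by -0.15 (adjusted p = 0.596) and -0.10 (adjusted p = 0.782). Egfr arrays with hairpin 1, at 6.97, 7.11 and 7.10, were all above the scramble arrays, but the difference of 0.44 (SE 0.164) had an adjusted p of 0.124. Itga1 differed by -0.42 (adjusted p = 0.137) and -0.33 (adjusted p = 0.307) with both sets of hairpin arrays narrowly under all scramble arrays.

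Related genes outside the set are described for some of the 13 gene lists that held a gene of the set. Over all genes tested, 5.83% were called with hairpin 1 and 3.52% with hairpin 5. Of 7 other scavenger receptor genes tested, Cxcl16 rose with both hairpins (0.83 and 0.58), Scara3 fell with hairpin 1 (-0.34) and Scara5 fell with hairpin 5 (-0.44). Of 20 other EGF, FGF, VEGF and PDGF ligands and receptors tested, Pdgfa fell with hairpin 1 (-0.55) and differed by -0.29 with hairpin 5 (adjusted p = 0.0951), and no other gene of that list passed. Of 13 other genes with integrin or cadherin symbols tested, Itgb7 (0.82) and the integrin-binding protein gene Itgb1bp1 (0.34) rose with hairpin 1, and Itgb5 fell with both (-0.34 and -0.37). For the remaining lists only genes called with both hairpins are given. Of 36 other proteases and inhibitors tested, Mmp9 (-1.02 and -1.45), Serpinf1 (-1.01 and -1.21) and Ctsl (-0.49 and -0.55) fell with both. Tfap2c (-1.37 and -1.33) fell among 42 other SOX, FOX, KLF, GATA, ETS and TFAP2 genes, and Col6a1 (-0.54 and -0.65) among 26 other matrix genes. Of 25 other ion channel genes, Gja1 fell with both (-0.34 and -0.38) and Aqp5 rose with both (0.90 and 0.41). Genes of these lists called with 1 hairpin only went both ways. With hairpin 1, for example, Mmp10 (0.64) and Klf5 (0.49) rose, and Plau (-0.47) and Etv5 (-0.72) fell.

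TM4SF1 in 4TO7 brought none of the 60 genes into detection, which the rule fixes, since it used all 6 of those arrays. Their values there were all below background and have no order, so no difference between TM4SF1 and empty vector is given for them. Of all 8228 genes tested limma called 2 (0.0243%).

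What the genes share beyond the rule was examined in their position and promoters. They lay on 20 chromosomes, with 9 on chromosome 11 (15%, where 9.19% of genes detected throughout 4T1 lie) and 6 on chromosome 4 (10%, 6.28%). Of the 9, Pmp22, Egfr, St6galnac2, Gjc1, Adam19, Igf2bp1, Fam117a, Ltc4s and Nptx1, none was next to another among detected genes. Dclk2 and Cd1d1 on chromosome 3 were the 1 neighbouring pair. Fam117a and Igf2bp1 had 3 detected genes between them, and Tmem185b and Htr5b on chromosome 1 had 4.

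Promoters were read from RefSeq's table, which spans 250 bases before to 50 after each start. It matched 43 of the 60 genes with 55 promoters. CpG dinucleotides, the sites of DNA methylation, were counted against the number that the C and G content of the window gives. The median of this ratio was 0.606 for the 4T1-only genes (quartiles 0.412 and 0.794) and 0.79 for 4975 genes detected on all 15 arrays (0.616 and 0.931). A ratio of 0.6 or more was found in 52.7% and 76.4% of promoters, although the median G and C content was close (59.3% and 61.3%). Over all 32851 promoters in the table the median ratio was 0.384. These are descriptions of the windows, with no test, and methylation was not measured. The 4T1-only genes were also dimmer. Their median log2 level in 4T1 was 6.62, against 8.19 for all genes detected on all 9 arrays of 4T1. Promoters of genes of like level, or of the genes given by the mirrored rule, were not compared.

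**Figure D5:**
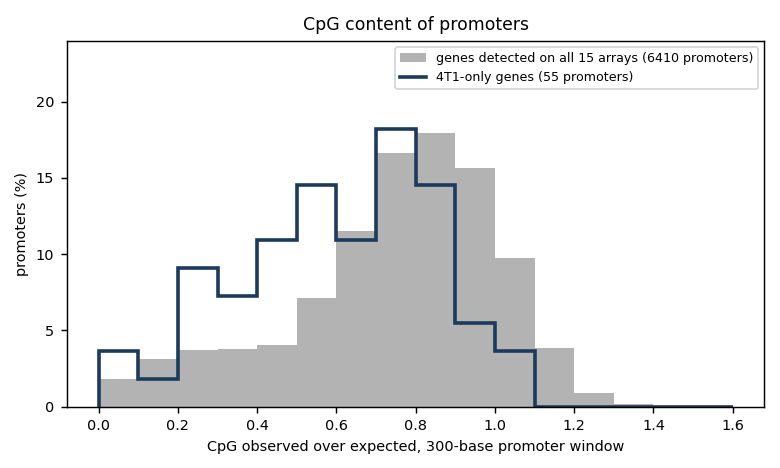
Share of promoters (%) by the ratio of observed to expected CpG in the 300-base window, for 55 promoters of the 4T1-only genes (line) and 6410 promoters of genes detected on all 15 arrays (grey). The 4T1-only promoters lie further left, with medians of 0.606 and 0.79.

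Motif letters were counted on both strands of the same windows. GGGCGG was found in 61.8% of the 4T1-only promoters, 66.2% of those of genes detected on all 15 arrays and 35.7% of all. TATAAA was found in 7.27%, 6.63% and 13.6%, and CCAAT in 34.5%, 38.6% and 37.4%. The AP-1 motif TGANTCA was found in 7.27%, 5.1% and 7.81%, and the E-box CANNTG, the class of sequence that Twist1 binds, in 65.5%, 61.8% and 72.3%, where the 6 letters are so common that a match says little. The CArG box, bound by serum response factor at actin genes, was searched only in the strict form CCWWWWWWGG, where W is A or T. This form was found in 0 of 55 promoters of the set and 1.37% of promoters of genes detected on all 15 arrays. Sites that depart from it by a base, or lie outside the window, were not searched, for Acta2 as for the others.

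Of the 60 genes 14 had other probes, 24 in all. Of these 7 were detected on all 9 arrays of 4T1, 9 on some and 8 on none, while 23 were detected on 0 of the 6 arrays of 4TO7. The 4TO7 count largely follows from the rule, which left out Adal, Ptprk and Rbpms for another probe detected in that line. The rule set no condition on other probes in 4T1. Adgrg3, Alg3, Nectin3, Pmp22, Usp11 and Fbln1 each had a further probe that was detected on every array of 4T1 and on none of 4TO7.

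The thresholds cut through a continuous range. Just inside were Arhgap26 (highest detection p in 4T1 0.00752), Piwil4 (0.00627) and Dnaja4 (0.00501), and, on the 4TO7 side, Alg3 (lowest detection p 0.0501), a Riken clone and Exo5 (0.0539). Just outside were Ptgds (0.010025), Acaa1b and Epha1 (0.0113) on the 4T1 side and Neurl3 and Thbs1 (0.0476) and Syne3 (0.0464) on the 4TO7 side. Mean log2 levels in 4T1 were 5.70 for Arhgap26 and 5.78 for Ptgds, and mean levels in 4TO7 were 4.44 for Alg3 and 4.67 for Thbs1.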

How the data were processed

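Per the file headers, the deposited matrix gave the mean bead intensity of 25697 probes on 15 arrays, on a linear scale and not normalized. It also held a detection p-value, the count of beads and the standard error of the signal, per the file headers. GenomeStudio is named in the submitters' processing notes, with no version given. A second table of the authors' deposited intensity values, background-subtracted and quantile-normalized as judged from the values, served as an alternative. How it was made is not stated. Column names gave each sample.

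Starting from the deposited intensity, normexp background correction in limma (negative controls inferred from detection p, offset 16) was followed by quantile normalization and log2. A probe was kept if detected (p under 0.01) on 3 arrays or more, which left 11109, and the brightest probe of a symbol was used, or the chosen probe for the 60 genes, which gave 8228 genes (7576 named). Symbols came from the platform annotation of 2016, with 23978 probes named and 1719 not. A group-means model over 15 arrays was fitted with limma 3.58.1 in R 4.3.3 (10 residual and 16.05 prior degrees of freedom, mean-variance trend). All p-values are two-sided and from limma, with Benjamini-Hochberg adjustment within each comparison over all genes tested. The code of the fit was checked on simulated data with planted changes and independent normal noise. That simulation left out background and normalization and does not bear on the calls. With 3 arrays in a group an exact permutation test cannot reach below p = 0.1 and was not used. Precision is limited by the number of arrays.

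The 60 genes and 29 gene lists were chosen with earlier results of these data known. Named with values were Ckb and Scarf2, the 12 genes with the highest scramble level, the 12 with the largest at-least fold, every called gene, the 3 nearest inside and outside each threshold, and every gene of the set in a list. Other genes are named by role, and Gper1 and the uncalled examples among them were chosen after their values were seen. Lists defined by the start of a symbol can hold genes of another family. Alternatives covered background, normalization, filters, the model, a block for the replicate number, and the omission of single arrays. Figures were drawn with matplotlib 3.10.9.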

Additional observations from a re-analysis of the deposited data

Results flagged for a closer look

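Of the 4T1-only genes, 5 were listed because the effect of hairpin 1 differed from that of hairpin 5 by the limma test of the difference itself. As log2 differences, hairpin 1 minus hairpin 5, these were Acta2 (-2.41), Kcnk6 (-0.86), Atp13a4 (1.02), Nbl1 (0.50) and Chchd10 (0.50). The groups hold 3 arrays each, so no group was examined for a single array standing apart.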

How the results depend on the processing

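The 22 changes of named genes were refitted under 19 alternatives each, 418 in all. Of these, 327 kept their direction and side of the threshold, 90 kept the direction and lost the threshold, and 1 turned its direction, the uncalled change of Scarf2 with hairpin 5 (-0.056), which ran from -0.116 to 0.0382 with 1 array left out and was above 0 only without hairpin 5 replicate 2. The rises of Acta2 with hairpin 5 and of Atp13a4 with hairpin 1, the falls of Dapk2 with hairpin 5 and of Shisa2 with hairpin 1, and the Acta2 difference between hairpins passed in all 19.

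For hairpin 1 against scramble, 8 of the 60 genes were called, or 14 without background correction. Calls fell to 2 with median scaling, 3 with no detection filter and 4 to 6 with 1 array left out. They rose to 12 with an offset of 50, with only the compared arrays or with no variance trend, and to 11 with array weights. Of all genes 480 were called, or 47 with median scaling, 318 with no filter and 275 to 356 with 1 array left out. Counts of all genes were higher with only the compared arrays (622) and with array weights (689). For hairpin 5, 5 of the 60 were called, or 8 without background correction and 7 with an offset of 50 or with no variance trend. Calls fell to 3 with the authors' deposited table, 2 with median scaling, 2 with no detection filter and 2 to 5 with 1 array left out. Of all genes 290 were called, or 25 with median scaling, 170 with no filter, 145 to 253 with 1 array left out and 361 with array weights. Between the hairpins 5 of the 60 were called, or 1 with median scaling, 2 with no filter and 2 to 4 with 1 array left out. Of all genes 153 were called, or 2, 101 and 81 to 159 under these, and 84 with no variance trend. With the dimmest array of every group left out, which was chosen after seeing the data, the counts of the 60 were 5, 3 and 2 and those of all genes 182, 98 and 41. For TM4SF1 in 4TO7, 2 genes were called, or 0 with median scaling, with only the compared arrays or with no variance trend, and 1 to 3 with 1 array left out. The cause of these shifts was not tested, except that leaving out arrays leaves fewer samples.

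The rule gave 39 genes with a 4T1 threshold of 0.001, 101 with a 4TO7 threshold of 0.01, 83 without the dimmest arrays and 60 to 66 with 1 array left out. Replicate numbers did not pair the arrays (r from -0.146 to 0.0632). With the replicate number as a block, 7, 4 and 4 of the 60 genes and 444, 256 and 140 of all genes were called in the 3 comparisons of 4T1, and the calls of Adm, Akap12 and Chchd10 were lost. Signal over background limits every 4TO7 value of these genes to a bound.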
